A study of Mus musculus with 3 samples.

Results

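The 48 genes described here are transcripts whose products copy DNA or carry a cell through division: 24 are read as S phase genes and 24 as G2 and mitosis (G2/M) genes. They were chosen by name, and all 48 were found among the 27998 genes of the deposited matrices. Sorted lung cells were sequenced cell by cell in 3 libraries, 1 per group, with Chromium 3' version 3 chemistry. All groups came from MMTV-HER2/Neu mice on the FvB background, which carry the HER2/Neu oncogene under the mouse mammary tumour virus promoter, active chiefly in mammary epithelium. The early HER2- library holds CD45- HER2- lung cells, and the early HER2+ library CD45- HER2+ lung cells, both from mice aged 14 to 18 weeks with no palpable tumour. The late HER2+ library holds CD45- HER2+ lung cells of mice older than 20 weeks that bore primary tumours. CD45 is a protein of leukocytes, so the sort was made against them, and the submitters regard HER2+ cells as breast cancer cells that had disseminated to the lung. The number of animals behind a library is not given in the sources used here. Each group being 1 library, the group cannot be told apart from the library, the animals or the day, and no value below has a replicate check.

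Barcodes with at least 1000 unique molecular identifiers (UMIs, each standing for 1 captured transcript molecule) and under 25% mitochondrial UMIs were kept: 6416 in the early HER2-, 7622 in the early HER2+ and 6012 in the late HER2+ library, with medians of 3166, 5318.5 and 8075 UMIs. Kept cells were put into classes by a few marker genes, in a fixed order. The mammary class took cells with at least 1% of their UMIs on Csn3 and Wfdc18, both milk protein genes. The alveolar type 2 (AT2) class, named for the surfactant-making cells of the alveolus, took cells with at least 10% on Sftpc. The endothelial (Cldn5, Cdh5), mural (Higd1b, Cox4i2, Myh11) and fibroblast (Pdgfra, Col1a2) classes each took cells with at least 2 UMIs of their genes. The mammary class held 161 cells, all in the late HER2+ library. The early libraries held 0. By a limit of 3 cells over the cells kept, this allows a share of up to 0.0468% in the early HER2- and 0.0394% in the early HER2+ library. The early HER2+ library held 3939 AT2, 1574 endothelial, 1367 mural and 269 fibroblast cells, and the late one 3996, 490, 934 and 73. The early HER2- library was mainly endothelial, with 5186 such cells, 684 fibroblast, 221 mural and 46 AT2 cells, the last too few to be compared. Thus most cells of both HER2+ libraries met the gate of a lung cell class rather than the mammary gate. The remaining 279, 473 and 358 cells matched no gate.

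Markers that the gates did not use followed the classes. A cell of the mammary class had a median of 395 UMIs over 7 other mammary markers such as Krt18 and Csn1s1, 3 UMIs over AT2 markers and 0 over endothelial, mural and fibroblast markers. AT2 markers other than Sftpc had medians of 110 UMIs per early and 140.5 per late HER2+ AT2 cell, against 1 and 2 for mammary markers. Of the leukocyte markers, 5 of 5, Ptprc among them, were at 0 in the mammary class. A class is a range along a marker and not a cell type: 23 mammary cells lay within a factor of 2 above the gate, 14 late cells lay within a factor of 2 below it, and 9 of the 161 matched a further gate. Of AT2 cells, 1142 early and 1024 late ones lay within a factor of 2 above their gate. More than 1 gate was met by 635 early and 515 late HER2+ mural cells. The libraries shared 18, 14 and 10 barcodes pairwise, at most 0.281% of the kept barcodes of a library.

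In S phase the genome is copied once: the Mcm2 to Mcm7 helicase ring is loaded on origins by Cdc6, switched on with Cdc45 and the GINS complex, and followed by polymerases held on DNA by the Pcna clamp, while Tyms and ribonucleotide reductase (Rrm1, Rrm2) supply nucleotides. In G2 and mitosis the kinase Cdk1 with cyclin B condenses chromosomes and builds the spindle. The anaphase-promoting complex, with Cdc20 and Ube2c, then releases the chromatids. Many S genes are transcribed under E2F factors, and many G2/M genes later, through promoters with CCAAT boxes and cell cycle homology region (CHR) elements. The adult lung at rest divides little, and cells in division carry these transcripts together.

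Promoters are printed for the 2 members of each phase with the most mammary UMIs among those that held any of the searched letters. A member with more UMIs weighs more in the sums below. The reference table, from RefSeq on GRCm38.p6, matched 42 of the 48 members by symbol. The letters searched, on either strand, in the 250 bases before the transcript start, were TTCCCGC or TTGGCGC for E2F, TTTGAA for CHR and CCAAT. Capitals below mark these letters or their reverse complement in that window, read 5' to 3' on the gene's strand. Rrm2 (S, chr12:24708004-24708253, plus strand) and Rrm1 (S, chr7:102441445-102441694, plus strand) code for the subunits of ribonucleotide reductase. Mki67 (G2/M, chr7:135716380-135716629, minus strand) codes for the Ki-67 protein that coats mitotic chromosomes, and Cenpf (G2/M, chr1:189688087-189688336, minus strand) for a kinetochore protein.
Rrm2: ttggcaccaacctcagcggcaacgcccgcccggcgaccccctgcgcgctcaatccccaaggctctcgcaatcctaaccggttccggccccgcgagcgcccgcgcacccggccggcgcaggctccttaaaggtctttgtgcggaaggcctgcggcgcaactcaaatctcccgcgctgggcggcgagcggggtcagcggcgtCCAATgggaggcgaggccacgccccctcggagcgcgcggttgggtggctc
Rrm1: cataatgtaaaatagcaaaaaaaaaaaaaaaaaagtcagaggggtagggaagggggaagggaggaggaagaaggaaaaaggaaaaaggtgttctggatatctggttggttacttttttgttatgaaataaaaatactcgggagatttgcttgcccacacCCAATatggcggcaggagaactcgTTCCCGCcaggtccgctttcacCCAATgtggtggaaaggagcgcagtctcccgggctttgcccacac
Mki67: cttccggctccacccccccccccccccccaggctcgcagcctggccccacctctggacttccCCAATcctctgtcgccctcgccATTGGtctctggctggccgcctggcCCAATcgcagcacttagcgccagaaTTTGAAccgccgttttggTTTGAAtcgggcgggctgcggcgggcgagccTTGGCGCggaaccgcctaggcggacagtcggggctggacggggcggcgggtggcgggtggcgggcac
Cenpf: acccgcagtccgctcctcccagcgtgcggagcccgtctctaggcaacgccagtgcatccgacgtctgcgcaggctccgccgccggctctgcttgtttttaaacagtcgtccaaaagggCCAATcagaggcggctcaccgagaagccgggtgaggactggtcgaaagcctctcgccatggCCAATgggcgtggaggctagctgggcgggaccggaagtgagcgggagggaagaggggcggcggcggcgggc
The Mki67 window holds CCAAT letters 3 times, 1 of them reversed, the CHR letters 2 times and E2F letters once, 61 to 67 bases before the start. Cenpf holds 2 CCAAT boxes and neither of the other motifs. Rrm1 holds E2F letters between 2 CCAAT boxes, and Rrm2 holds 1 CCAAT box. Over the members with a promoter, E2F letters were present in 10 of 20 S genes (50%) and 3 of 22 G2/M genes (13.6%), against 6.45% of all 27025 genes in the table. CCAAT letters were in 70% of S and 77.3% of G2/M members, against 37.5% of all genes. CHR letters were in 20% of S and 31.8% of G2/M members, against 18.3% of all genes. CHR and CCAAT letters occurred in the same promoter in 7 of 22 G2/M members (31.8%) and 3 of 20 S members (15%), against 6.45% of all genes. The G2/M members were Cdk1, Ccnb2, Ube2c, Cdc20, Kif11, Top2a and Mki67. E2F letters overlapped CCAAT letters in 1 S and 1 G2/M member. A match of letters is a description of the sequence and not evidence that a factor binds there.

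The 24 G2/M genes together reached 1012 CPM (UMIs of a gene scaled to a class total of 1000000 UMIs, 95% exact Poisson interval 980 to 1045) in the mammary class. In every other class of every library they lay between 16.9 and 96.7 CPM. The S genes were less uneven: 367 CPM (348 to 388) in the mammary class, against 146 to 233 CPM in the other named classes. Mammary cells held 7.24% of the UMIs of the late HER2+ library, 71.7% of its G2/M UMIs and 15.1% of its S UMIs. By gene, the mammary share of late UMIs ran from 2.31% for Cdca7, 5.18% for Slbp and 12.5% for Bub1 to 90.1% for Mki67 and 91.1% for Hmmr. The intervals cover counting error alone, and UMIs that share a cell are not independent, so they are too narrow where few cells hold most of a sum. A sum over a class also cannot tell more cells from more RNA per cell. Barcodes of 1 to 100 UMIs, which carry free RNA, gave 164 to 176 CPM of S and 52.6 to 98.2 CPM of G2/M genes. The G2/M values were near or above the levels of most lung classes. The S values were above those of HER2+ AT2 cells, but below those of endothelial and mural cells of the same library. The part of free RNA in the low levels was not tested.

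**Figure D1:**
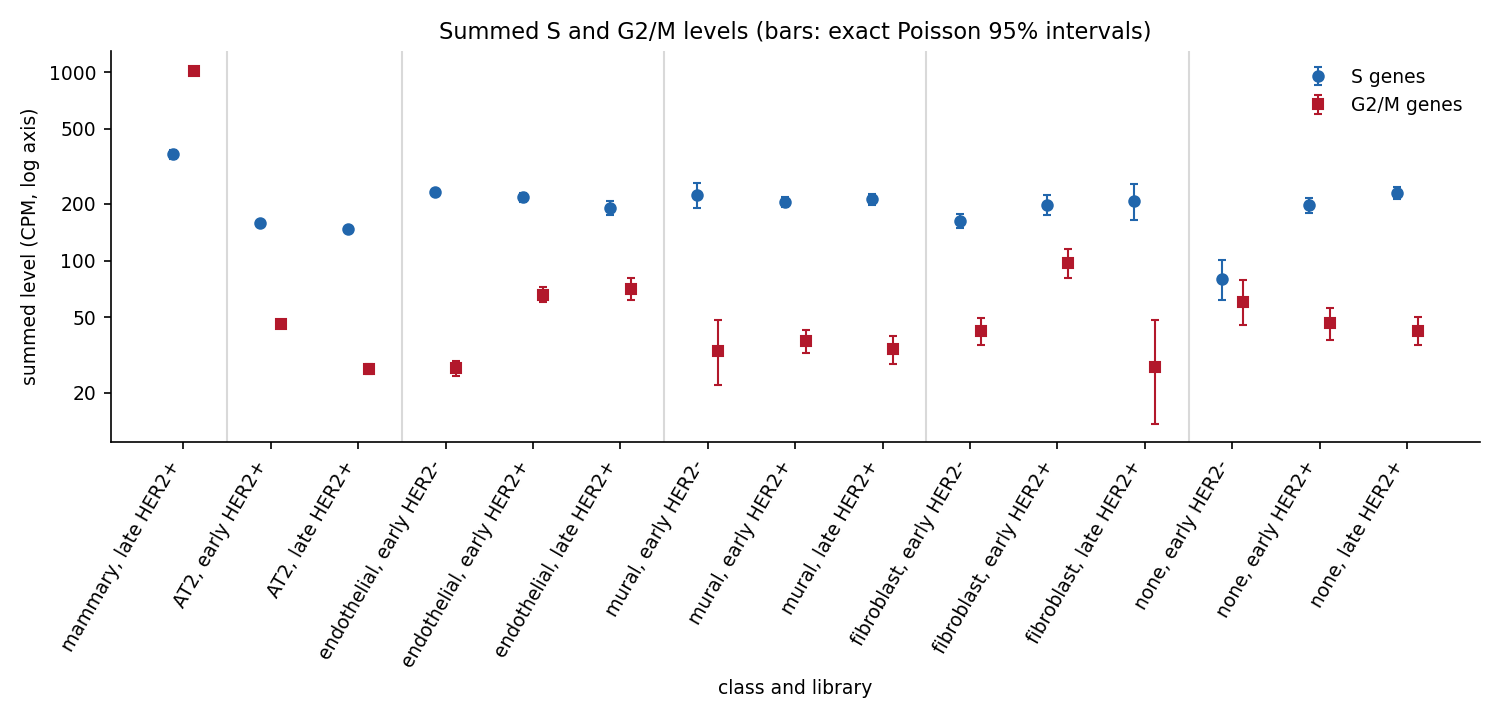
Summed level of the 24 S genes (circles) and the 24 G2/M genes (squares) in CPM on a log axis, for each class and library, with exact Poisson 95% intervals. S levels lie between 79.6 and 367 CPM throughout, whereas the G2/M level of the mammary class, 1012 CPM, stands above the other classes, which span 26.6 to 96.7 CPM among those drawn.

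The AT2 levels were 158 CPM (S) and 46.2 CPM (G2/M) in the early and 146 and 26.6 CPM in the late HER2+ library. Endothelial cells gave G2/M levels of 27.0, 66.2 and 70.6 CPM in the early HER2-, early HER2+ and late HER2+ libraries. Mural cells gave 33.2, 37.5 and 33.9 CPM in the same order, and fibroblasts 42.2, 96.7 and 27.1 CPM. S levels were 233, 217 and 191 CPM in endothelial, 223, 204 and 212 CPM in mural and 163, 198 and 207 CPM in fibroblast cells. Cells without a class gave G2/M levels of 60.6, 46.6 and 42.4 CPM, and in the early HER2- library these cells were rich in red cell transcripts, at 448704 CPM over 4 erythroid markers.

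Within the late HER2+ library the mammary class was set against the AT2 class, the largest lung class captured beside it, so that library effects are shared. The summed G2/M level was 38.1-fold higher in mammary cells (35.5 to 40.9) and the summed S level 2.51-fold higher (2.36 to 2.66). A gene is called higher or lower here when its CPM differ by at least 1.5-fold with at least 10 UMIs over both sides. By this rule 23 of 24 G2/M genes and 20 of 23 measured S genes were higher in mammary cells, and 1 S gene was lower. The background is high: 45.2% of the 13746 genes measured were higher and 20.4% lower. The median log2 ratio was 5.98 over G2/M and 2.12 over S genes, against 0.43 over all genes. Exact conditional intervals are given for ratios, and levels outside the mammary class are given over 11 sums, those of each class and library with at least 50 cells.

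**Figure D2:**
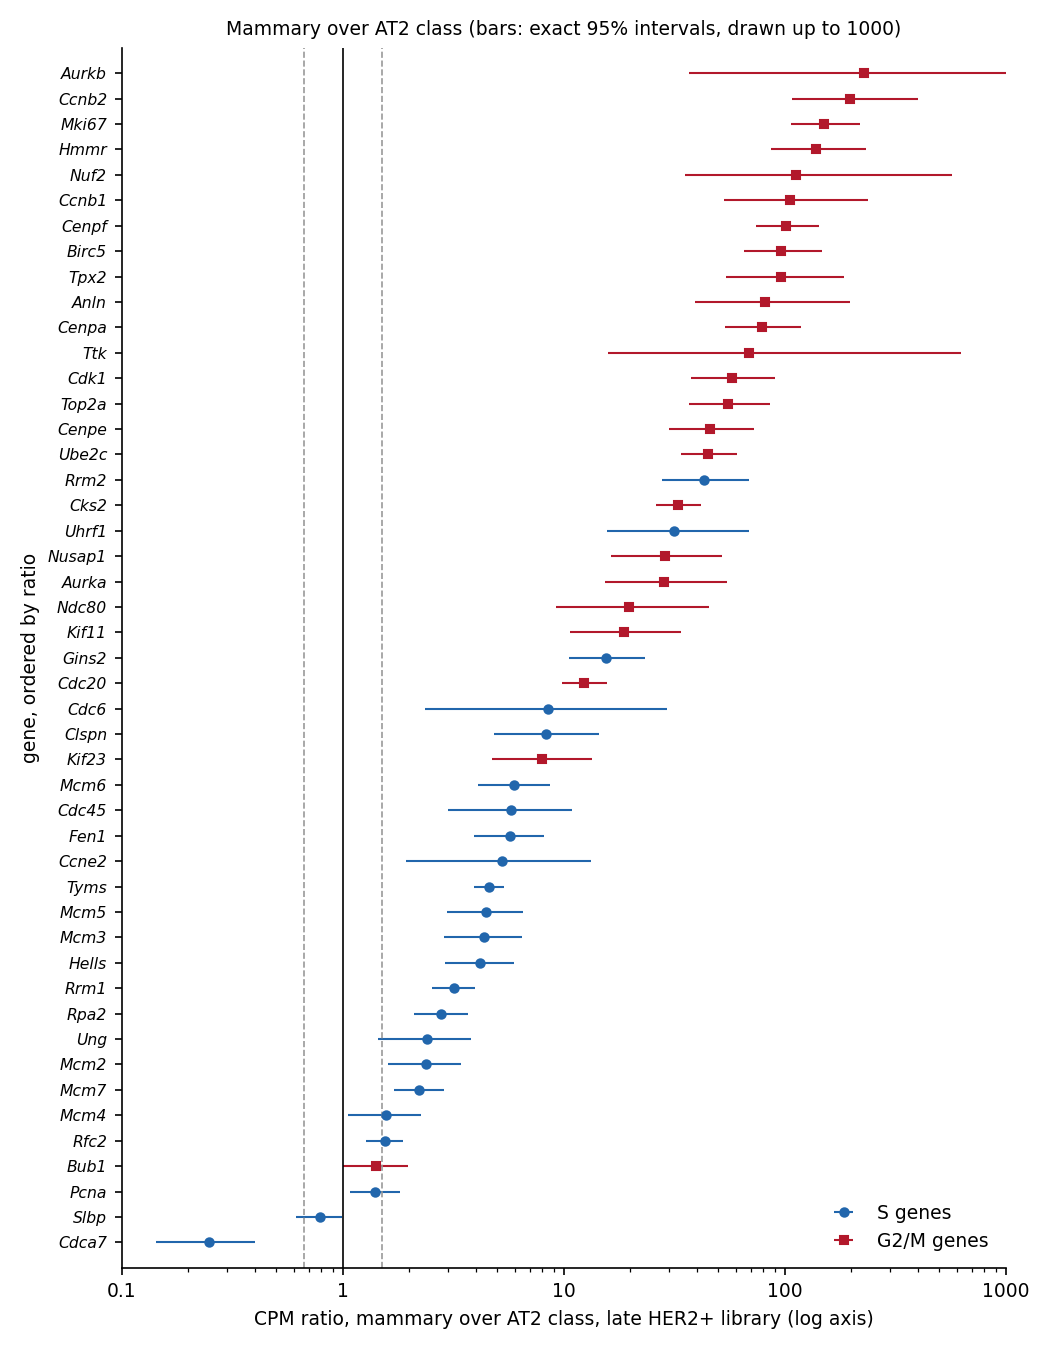
Ratio of CPM in mammary over AT2 cells of the late HER2+ library for the 47 measured members, ordered by ratio on a log axis, with exact 95% intervals. Circles are S and squares G2/M genes, and dashed lines mark 1.5-fold either way. Aurkb is at the top at 228-fold, most squares lie above the circles, and Cdca7 is the only gene left of the lower dashed line.

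Of the mitotic kinase group, all 4 members were higher in mammary cells. Cks2, a small subunit of Cdk complexes and the member of the group with most UMIs, was at 90.0 CPM in the mammary class and at 2.47 to 6.76 CPM (median 4.32) in the other 11 sums. It was 32.9-fold higher than in late AT2 cells (26.3 to 41.6). Ccnb2, a B-type cyclin, was at 59.2 CPM (219 UMIs) against 0 to 4.30 CPM, and 197-fold higher than in AT2 cells (108 to 400). Ccnb1, the main mitotic cyclin and the group's least counted member, was at 26.0 CPM against 0 to 1.58 CPM elsewhere. Cdk1 itself was at 40.8 CPM against 0 to 7.68 CPM. For each of these 4 genes the mammary value was above all 11 others. The matrices also list pseudogene copies of Ccnb1 and Ccnb2, between which reads may be split.

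In the anaphase-promoting complex group, Ube2c, its ubiquitin-conjugating enzyme, was at 72.7 CPM in mammary cells against 0 to 7.06 CPM in the other sums. It was 45.1-fold higher than in late AT2 cells (33.9 to 60.9). Cdc20, its activator, was at 46.8 CPM against 0 to 5.46 CPM, a 12.4-fold difference from late AT2 cells (9.86 to 15.6). Among cells without a class, Ube2c reached 29.2 CPM (26 UMIs in 18 cells) in the early HER2- library, where the erythroid markers were high. The part of red cells in this level was not tested.

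The chromosomal passenger complex, which corrects attachments of chromosomes to the spindle, is represented by Birc5 (survivin) and its kinase Aurkb. Birc5 was at 73.8 CPM in mammary cells and at 0 to 8.44 CPM elsewhere. Aurkb (ENSMUSG00000020897, chromosome 11, 69045647 to 69051664 on mm10) gave 23 UMIs in mammary and 1 UMI in late AT2 cells, the highest ratio of any member at 228, with an interval from 37.0 to 9374. Of the 5 spindle genes, Hmmr (a microtubule-binding protein) had most UMIs, at 71.7 CPM against 0 to 2.01 CPM, a 138-fold difference from AT2 cells (86.6 to 233). Kif11, the motor that separates spindle poles, had fewest, at 10.3 CPM against 0 to 2.30 CPM. Tpx2, which activates the kinase Aurka, was at 34.1 CPM, and Aurka and Nusap1 at 11.6 and 14.1 CPM. All 5 were above every other sum.

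Kinetochore genes followed the same order with 1 exception. Cenpf was at 117 CPM (431 UMIs) in mammary cells and 0 to 6.42 CPM in the other sums, and 102-fold higher than in late AT2 cells (73.9 to 143). Cenpa, the histone H3 variant of centromeres and the group's most counted member, was at 66.5 CPM in mammary cells, but also at 7.40 to 18.1 CPM in endothelial, mural and fibroblast cells of all libraries. Its AT2 levels were lower, 2.59 and 0.847 CPM, and the mammary level was 78.5-fold above the latter (53.9 to 118). Ttk, a spindle checkpoint kinase, was the least counted, with 14 UMIs in mammary and 2 in late AT2 cells, a ratio of 69.3 (15.9 to 628). Bub1 (ENSMUSG00000027379, chromosome 2, 127801122 to 127831865), another checkpoint kinase, was the G2/M gene not called higher: 11.4 CPM in mammary, 8.01 CPM in late AT2 and 9.15 CPM in early HER2+ AT2 cells, a mammary to AT2 ratio of 1.42 (1.0 to 1.96). Cenpe, Ndc80 and Nuf2, all of the kinetochore, were at 33.8, 5.95 and 9.19 CPM in mammary cells, each above the other sums. Outside AT2 and mammary cells Bub1 lay between 0 and 3.07 CPM.

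For cytokinesis, Anln, which scaffolds the contractile ring, was at 17.8 CPM in mammary cells and at 0.0572 to 6.14 CPM elsewhere. Kif23, a motor of the spindle midzone, was at 7.84 CPM against 0 to 2.30 CPM, and its 7.97-fold difference from AT2 cells (4.71 to 13.4) was the smallest among the called G2/M genes. Of the chromosome genes, Mki67 (ENSMUSG00000031004, chromosome 7, 135689784 to 135716361), whose promoter is printed above, gave 140 CPM (518 UMIs) against 0 to 15.4 CPM (median 0.929). It was 151-fold higher than in late AT2 cells (106 to 220). Top2a, the topoisomerase that untangles sister chromatids, was at 42.2 CPM against 0 to 10.7 CPM. All 24 G2/M genes had their highest level in the mammary class among the 12 sums compared.

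**Figure D3:**
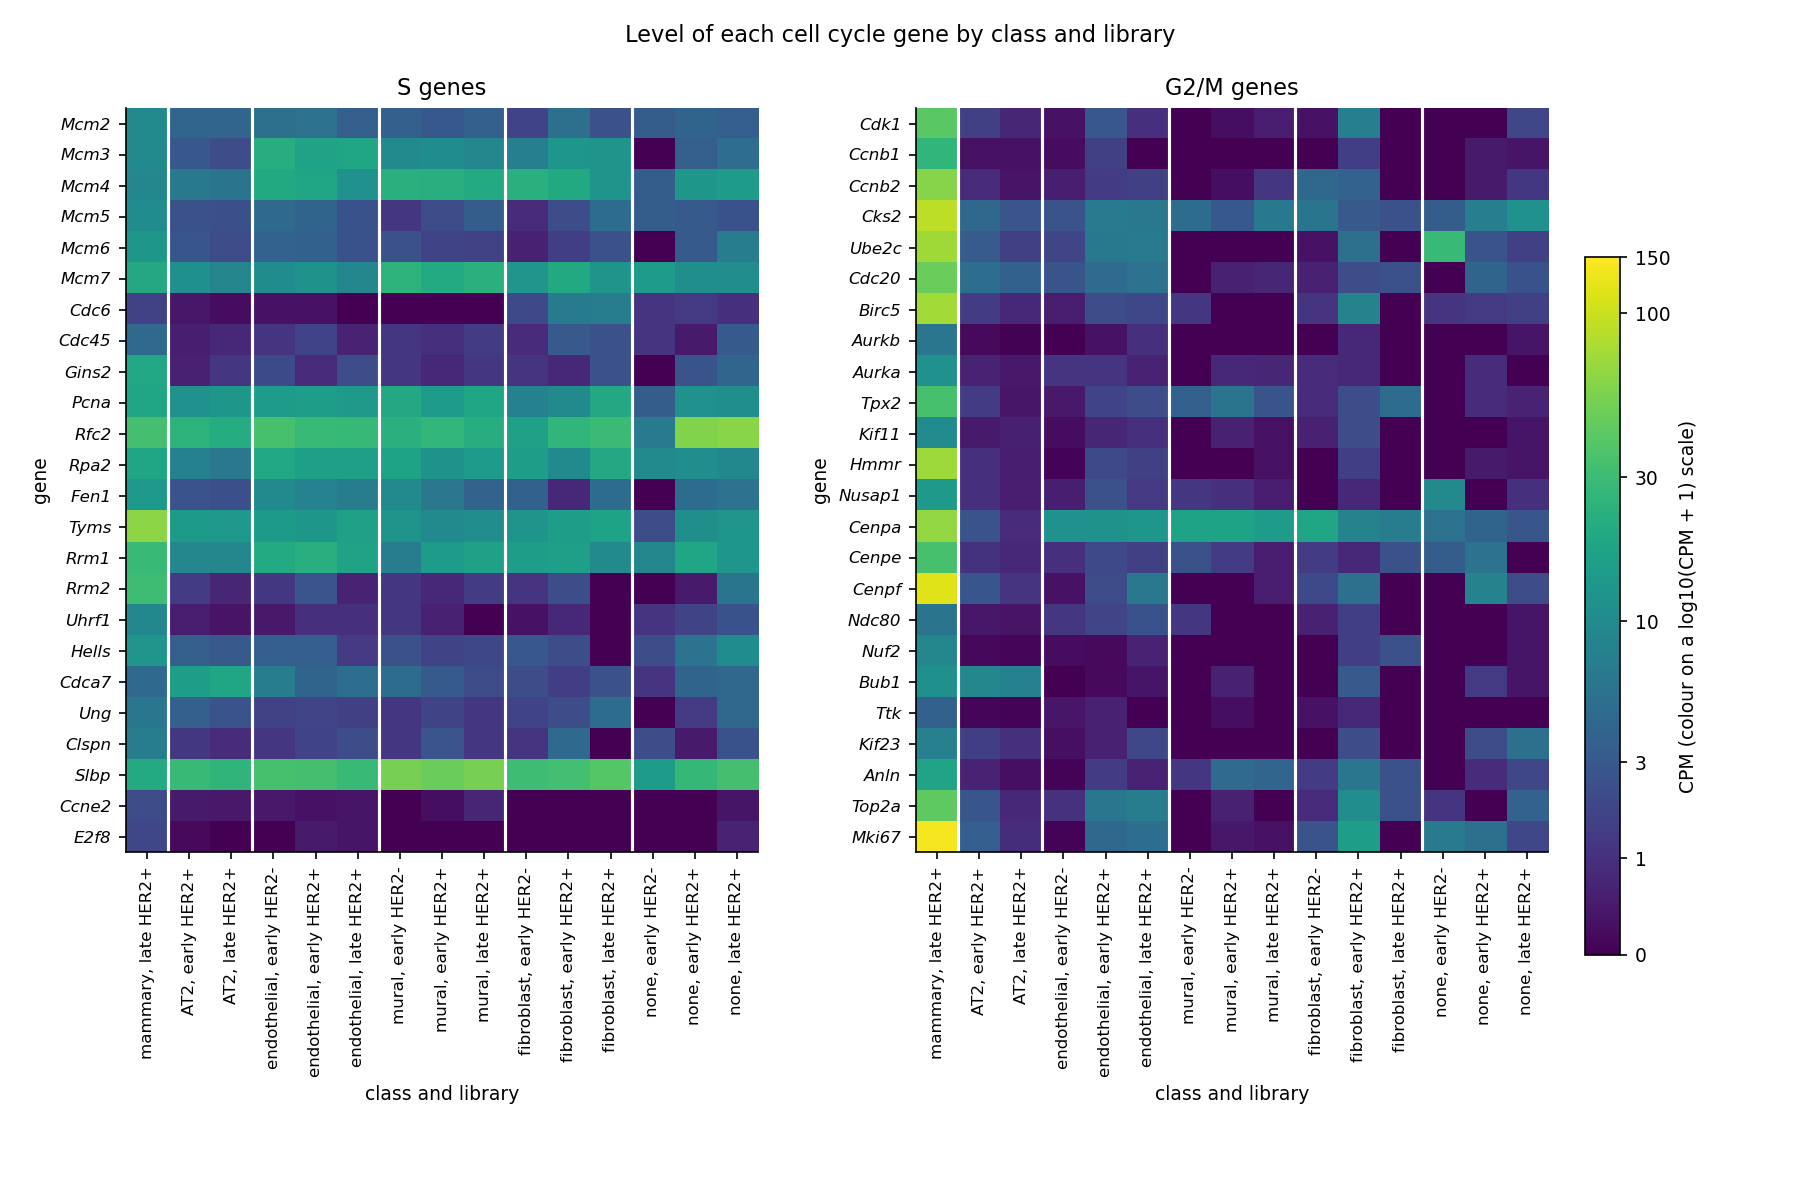
Level of each of the 48 genes in CPM, as colour on a log10(CPM + 1) scale, with genes in rows and the classes of each library in columns; the early HER2- AT2 class, of 46 cells, is left out. The mammary column is the brightest for every G2/M gene of the named classes, while S genes such as Slbp, Rfc2 and Mcm4 are bright in most columns.

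S genes differed more among themselves. The mammary class held the highest of the 12 sums for Mcm2, Mcm5 and Mcm6 of the helicase ring, but not for Mcm3, Mcm4 and Mcm7. Mcm7, with most UMIs, was at 19.7 CPM in mammary cells and at 8.88 to 24.6 CPM elsewhere. Mcm6, with fewest, was at 13.2 CPM against 0.574 to 3.83 CPM and 5.98-fold higher than in late AT2 cells (4.11 to 8.64). Mcm3 and Mcm4 were at 10.0 and 9.19 CPM in mammary cells, below the 17.1 to 21.9 CPM of Mcm3 and the 11.6 to 20.1 CPM of Mcm4 in endothelial cells. Mcm2 and Mcm5 were at 9.73 and 10.5 CPM, 2.37-fold and 4.44-fold above late AT2 cells. Of the genes that load and activate the ring, Cdc45 was at 4.60 CPM, 5.80-fold above late AT2 cells. Gins2, a GINS subunit, was at 19.2 CPM against 0.587 to 2.47 CPM, 15.6-fold above late AT2 cells (10.6 to 23.2). Cdc6, the helicase loader, was sparse at 1.62 CPM (6 UMIs) in mammary cells and reached 7.40 CPM (3 UMIs) in late and 6.91 CPM (9 UMIs) in early HER2+ fibroblasts.

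At the replication fork, Rfc2, a clamp loader subunit with most UMIs of its group, was at 33.3 CPM in mammary cells and 16.6 to 34.0 CPM elsewhere, a ratio of 1.55 over late AT2 cells (1.27 to 1.87). Cells without a class held more of it, at 56.8 and 60.4 CPM in the HER2+ libraries. Fen1, the flap nuclease of lagging strands, was at 13.5 CPM against 0.768 to 9.89 CPM. Rpa2, of the complex that coats single-stranded DNA, was at 18.1 CPM, with late fibroblasts and early HER2- endothelial cells higher at 19.7 and 19.4 CPM. Pcna was not called, at 18.7 CPM in mammary and 13.3 CPM in late AT2 cells, a ratio of 1.40 (1.08 to 1.81). Pseudogene copies of Pcna (2) and Tyms (1) are also listed in the matrices. All 3 genes of nucleotide supply were higher in the mammary class than in the other 11 sums. Tyms was at 61.9 CPM against 9.86 to 17.3 CPM, and Rrm1 at 28.9 CPM against 7.38 to 22.0 CPM. Rrm2 (ENSMUSG00000020649, chromosome 12, 24708241 to 24714146), the subunit made in S phase, was at 30.6 CPM against 0 to 2.73 CPM, and 43.0-fold higher than in late AT2 cells (27.9 to 68.6).

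Of the chromatin group, Uhrf1, which carries DNA methylation through replication, was at 9.46 CPM in mammary cells against 0 to 1.23 CPM. It was 31.5-fold above late AT2 cells (15.6 to 68.7). Cdca7 (ENSMUSG00000055612, chromosome 2, 72476159 to 72486893), a partner of the remodeller Hells, was the 1 member called lower, at 4.60 CPM (17 UMIs) in mammary and 18.6 CPM (679 UMIs) in late AT2 cells, a ratio of 0.248 (0.143 to 0.400). It was nearly as high in early HER2+ AT2 cells, 15.4 CPM, and at 1.54 to 7.26 CPM in the endothelial, mural and fibroblast classes. Hells was at 12.7 CPM in mammary and 3.03 CPM in late AT2 cells. Slbp, which binds histone mRNA and had most UMIs of all members, was at 20.3 CPM in mammary cells, below all 11 other sums (25.8 to 53.4 CPM). Clspn, a checkpoint adaptor and the least counted of its group, was at 7.30 CPM against 0 to 4.61 CPM. Ung, a uracil glycosylase, was at 6.22 CPM against 1.22 to 4.94 CPM. Ccne2, cyclin E2, gave 8 UMIs in mammary and 15 in late AT2 cells, and E2f8, a repressor of E2F targets, gave 7 and 0 UMIs, too few to be measured.

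The G2/M UMIs of the mammary class lay in few cells. The cell with most held 658, which is 17.6% of the 3744, 5 cells held at least 50%, and 10 cells held 73.7%. The S UMIs were spread wider, with 10 cells for 50.3%. Cells with UMIs of at least 5 different G2/M genes numbered 31 of 161, or 19.3% (exact binomial 95% interval 13.5 to 26.2%), a threshold set after the data were seen. They held 95.6% of the G2/M and 62.0% of the S UMIs of the class. Since G2/M genes chose these cells, their G2/M level of 3761 CPM against 60.1 CPM in the other 130 cells is a description only. Their S level, which did not enter the choice, was 886 CPM against 188 CPM. Of the 31 cells, 23 also held at least 5 S genes and 27 had more G2/M than S UMIs. A further 17 cells held at least 5 S but under 5 G2/M genes, and 113 held under 5 of either. The threshold cut a gradual range, with 7 cells at exactly 4 and 2 cells at exactly 5 G2/M genes. Depth differed, with median UMIs of 27701 against 21010, and the milk genes Csn3 and Wfdc18 took a median of 4.17% and 4.16% of UMIs. Cells were not thinned for this count, and the G2/M levels of both sets overlapped. The lowest of the 31 was 74.9 CPM, in a cell of 133491 UMIs. The highest of the other 130 was 649 CPM, from 1 G2/M UMI in a cell of 1540 UMIs.

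**Figure D4:**
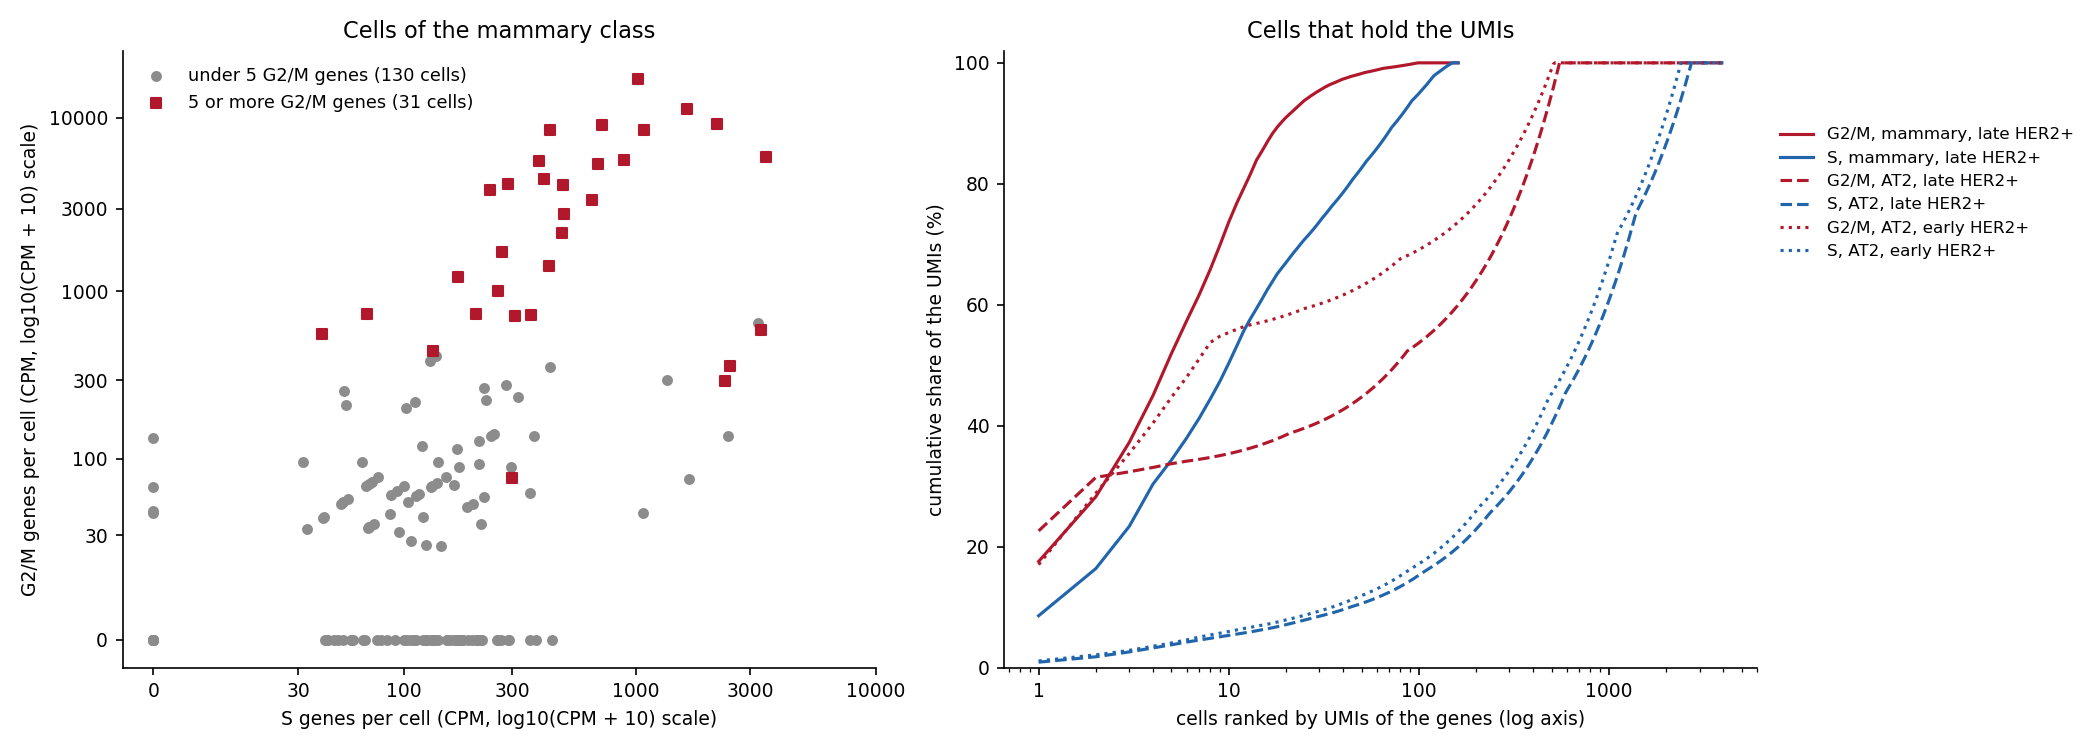
Left, each of the 161 mammary cells by S and G2/M level in CPM, on log10(CPM + 10) scales; squares are the 31 cells with at least 5 G2/M genes, circles the other 130. Right, cumulative share of UMIs over cells ranked by UMIs, on a log axis, for mammary cells and for AT2 cells of both HER2+ libraries: the first 5 mammary cells reach 50% of the G2/M UMIs, while S curves of AT2 cells climb over far more cells.

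In the 130 other mammary cells the ratio to late AT2 cells had an interval above 1 for 16 of 48 members and below 1 for 3. This count was not made over all genes, so it has no background to be set against. By the 1.5-fold rule, 45.2% of all genes were higher and 20.4% lower in the whole mammary class than in late AT2 cells. As the 130 cells were chosen by having few G2/M genes, their G2/M values are a description only. Gins2 was at 12.7 CPM, 10.4-fold above late AT2 cells (6.47 to 16.5), with 35 UMIs in 29 cells. Mki67 was at 11.6 CPM (32 UMIs in 17 cells), 12.5-fold above AT2 cells (7.49 to 20.9). Ccnb2 was 9.69-fold higher (3.38 to 26.4) on 8 UMIs in 4 cells, and Cks2, at 24.4 CPM, 8.93-fold (6.45 to 12.3). The other 12 higher members ran from 1.52-fold (Mcm7) to 6.15-fold (Rrm2). Some of these S sums rest on few cells. Of the 516 S UMIs of the 130 cells, single cells held 49, 45, 35 and 27. The 15 UMIs of Mcm3 lay in 5 cells and the 18 of Hells in 6, while the 75 of Tyms lay in 43. Where few cells hold a sum, its interval is too narrow. The members below 1 were Bub1 (0.0455, 1 UMI, 0.00115 to 0.255), Cdca7 (0.157, 0.0675 to 0.311) and Slbp (0.648, 0.471 to 0.872). Ccnb1, Aurkb, Kif11, Hmmr, Nusap1, Ndc80, Nuf2, Ttk and Anln had 0 UMIs in these cells. As the cells were picked for few G2/M genes, low G2/M values there follow from the choice.

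To compare shares of cells across depths, each cell was thinned to 1000 UMIs and counted when it kept at least 3 member UMIs. In the mammary class 25 of 161 cells did so, 15.5% (10.3 to 22.1%), and unthinned 71.4%. In late AT2 cells 4 of 3996 did, 0.10% (0.0273 to 0.256%), and in early HER2+ AT2 cells 14 of 3939, 0.355% (0.194 to 0.596%). Unthinned, those shares were 18.5% and 15.4%. Endothelial cells gave 24 of 5186 (0.463%), 10 of 1574 (0.635%) and 1 of 490 (0.204%) in the early HER2-, early HER2+ and late HER2+ libraries. Late mural cells gave 0 of 934 (0 to 0.394%) and late fibroblasts 0 of 73 (0 to 4.93%). A single draw adds noise at these counts, and another draw gave 3 late mural and 4 early HER2+ endothelial cells. Averaged over all draws, the shares were 12.6% in mammary, 0.192% in late AT2 and 0.419% in early HER2+ AT2 cells. They were 0.400%, 0.569% and 0.342% in endothelial cells, in the order above, 0.264% in late mural cells and 0.121% in late fibroblasts. This average was added after the data were seen. In the mammary class 5 cells lay at exactly 3 and 6 at exactly 2 UMIs. Of the 24 early HER2- endothelial cells, 16 had no G2/M UMI, so their count rests on S genes.

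Among the late cells that matched no gate, 3 had at least 5 G2/M genes, and these had a median of 311 UMIs of mammary markers.

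Early and late HER2+ libraries differ in stage, age, animals and library at once. Over all kept cells, the summed G2/M level was lower in the early library, 49.8 against 102 CPM, a ratio of 0.487 (0.463 to 0.512), while the S levels, 175 and 176 CPM, did not differ beyond counting error (0.997, 0.967 to 1.03). Of 24 G2/M genes 0 were higher and 17 lower, against 17.1% and 8.24% of all genes. Of 24 S genes 1 was higher and 5 were lower: Gins2 (0.275), Rrm2 (0.470), Uhrf1 (0.583), Cdc45 (0.653) and Ccne2 (0.655). With equal weight per cell the log2 ratio of the G2/M sum was -0.36 in place of -1.04, and 9 G2/M genes were lower. Such counts at other settings, here and below, were not made over all genes, so they have no background to be set against. The lowest ratios were those of Nuf2 at 0.168 (6 and 41 UMIs), Hmmr at 0.181 and Ccnb2 at 0.193. The highest were S genes: Cdc6 at 1.51 (25 and 19 UMIs), Mcm3 at 1.36 and Mcm4 at 1.34.

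Outside the mammary class the direction was the opposite. There the summed G2/M level was 1.60-fold higher in the early library (1.5 to 1.71), 49.8 against 31.2 CPM, with 16 of 24 G2/M genes higher and 0 lower. Of all genes, 18.4% were higher and 5.64% lower. Ttk had the highest ratio at 4.25 with 8 and 2 UMIs (0.849 to 41.1), followed by Mki67 at 3.12 and Tpx2 at 2.70. Gins2 had the lowest at 0.509, then Cdca7 at 0.741 and Cdc45 at 0.820. Of 24 S genes Cdc6 (2.05) and E2f8 (2.48, 0.567 to 14.9, 7 and 3 UMIs) were higher, and Gins2 was lower. With the mammary gate at 5% and the AT2 gate at 20%, 99 fewer cells were mammary, and the late cells outside the class gained their UMIs. The direction of the G2/M sum then turned, to a log2 ratio of -0.47 in place of 0.68, and 0 G2/M genes were higher.

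In AT2 cells the G2/M level was 1.74-fold higher early than late (1.60 to 1.89), between the HER2+ libraries, and the S level 1.08-fold (1.04 to 1.12). Of 21 measured G2/M genes 15 were higher and 0 lower, where 15.3% and 3.66% of all genes were. Tpx2 was at 1.45 CPM (42 UMIs) early and 0.355 CPM (13 UMIs) late, a ratio of 4.08 (2.15 to 8.29). Mki67 was at 3.52 and 0.929 CPM (3.79, 2.55 to 5.76), and Top2a at 2.80 and 0.765 CPM (3.65, 2.35 to 5.84). Kif11 had the lowest G2/M ratio at 0.821, on 13 and 20 UMIs. Of 23 S genes, Cdc6, Rrm2 and Uhrf1 were higher, with Rrm2 at 1.99 (1.19 to 3.39), and Gins2 (0.477) and Cdc45 (0.653) lower. In the early library 11 and in the late 4 AT2 cells had at least 5 G2/M genes, and held 55.9% and 33.1% of the G2/M UMIs. The levels of 20.4 and 17.8 CPM in the remaining AT2 cells are a description only, since G2/M genes chose the cells. The 4 late cells had a median of 18.5 UMIs of mammary markers, against 2 over all late AT2 cells. The 11 early cells had a median of 4 and at most 30, against 1 over all early HER2+ AT2 cells. Of these 11, 1 also met another gate. Their mural and fibroblast markers had medians of 0, but reached 85 and 55 UMIs in a cell. The part of mammary or other foreign RNA in both sets of cells was not tested. With a mitochondrial limit of 10%, 7 G2/M genes were higher, and with the AT2 gate at 20% and the mammary gate at 5%, 2 were.

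In endothelial cells the G2/M level did not differ beyond counting error between the HER2+ libraries, 66.2 early against 70.6 CPM late (ratio 0.937, 0.796 to 1.11), and the S level was 1.14-fold higher early (1.03 to 1.25). Of 19 measured G2/M genes 5 were higher and 2 lower, against 12.3% and 5.99% of all genes, and of 21 S genes 6 were higher and 1 lower. Rrm2 gave 19 early and 2 late UMIs, a ratio of 4.26 (1.03 to 37.7), Cdk1 20 and 3 (2.99, 0.886 to 15.7), and Hells and Cdc45 both had a ratio of 2.69. Ccnb1 gave 11 and 0 UMIs, a ratio of 1.64 with the side at 0 set to a floor of 3 UMIs, which is not an exact lower limit. Kif23 (0.299, 4 and 6 UMIs), Cenpf (0.336, 0.160 to 0.691) and Gins2 (0.384) were lowest. A single late cell held 130 of the 220 G2/M UMIs and a single early cell 178 of 460. Without the cell with most member UMIs on each side, the log2 ratio of the G2/M sum went from -0.09 to 0.49, and that of Cenpf to 0.84.

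Mural cells had few G2/M UMIs, 190 early and 139 late, at a ratio of 1.11 (0.884 to 1.39), and an S ratio of 0.961 (0.878 to 1.05). With the mammary gate at 5% and the AT2 gate at 20% the G2/M sum turned, to a log2 ratio of -2.04 in place of 0.14. Of 4 measured G2/M genes Tpx2 was higher (2.21, 1.07 to 4.88) and Cks2 lower (0.449, 0.222 to 0.875), where 13.6% and 6.58% of all genes were. Of 19 S genes Clspn (2.26, 14 and 5 UMIs) and Fen1 (1.62) were higher, and Rrm2 (0.539, 4 and 6 UMIs) and Mcm5 (0.636) lower. In fibroblasts the late library held only 11 G2/M UMIs in 73 cells. The G2/M ratio of 3.56 (1.92 to 7.32) rested on 1 early cell with 99 of 126 UMIs, without which its log2 value was -0.28 in place of 1.83. Of 5 G2/M genes Mki67 (20 and 0 UMIs, 2.07 by the floor of 3 UMIs) and Top2a (14 and 1 UMIs, 4.35, 0.662 to 184) were higher, against 16.9% of all genes. Of 10 S genes 3 were higher, Rrm1 at 1.63, Mcm4 at 1.62 and Mcm7 at 1.62, and Pcna and Rpa2 were lower at 0.505 each, with Slbp next at 0.836, against 15.1% of all genes lower.

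**Figure D5:**
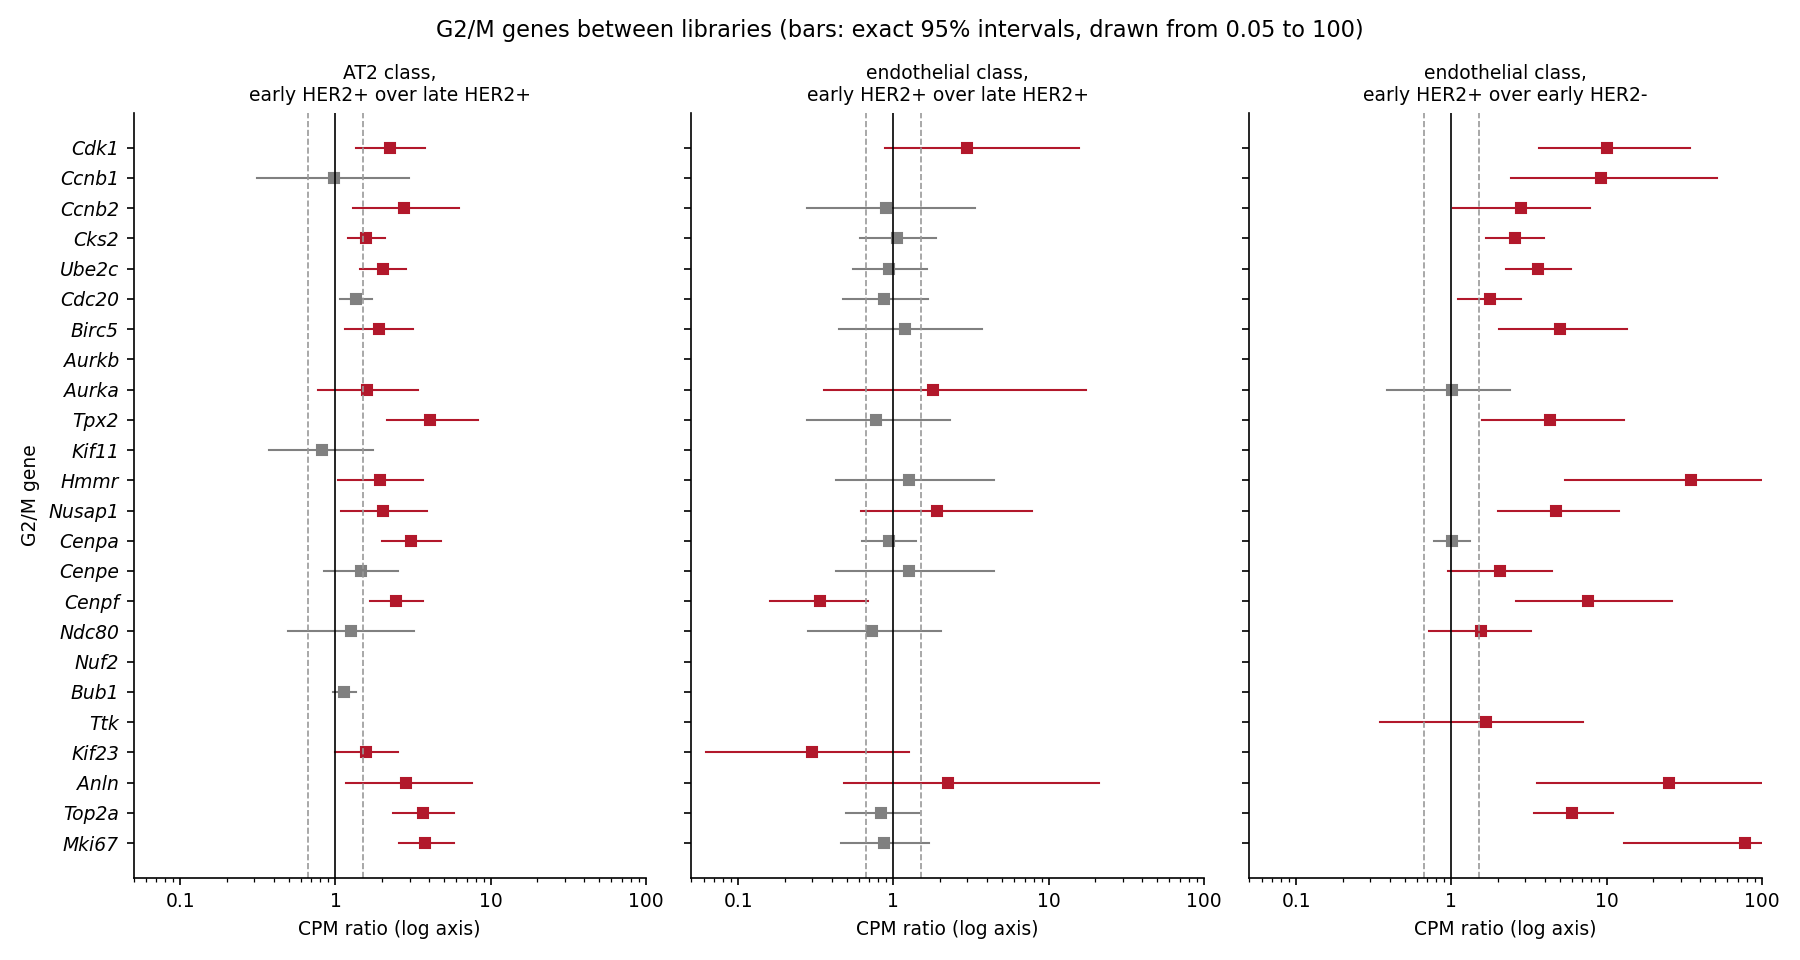
Ratio of CPM between libraries for each G2/M gene, on log axes with exact 95% intervals: AT2 cells and endothelial cells, early over late HER2+, and endothelial cells, early HER2+ over early HER2-. Genes past 1.5-fold (dashed) are in red, and genes that were not measured, and Ccnb1 where 1 side is at 0, have no point. Red points lie right of the line in the outer panels, while the middle panel has points on both sides.

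The early libraries differ in the HER2 sort and in library. The early HER2+ library enters this comparison and the one above, so they are not independent. In endothelial cells the G2/M level was 2.45-fold higher in the HER2+ library (2.15 to 2.79), 66.2 against 27.0 CPM, and the S level 0.931-fold (0.877 to 0.988). Of 19 measured G2/M genes 17 were higher and 0 lower, where 15.6% and 6.62% of all genes were. Mki67 gave 31 UMIs in 4 of the 1574 HER2+ and 1 UMI in the 5186 HER2- cells, a ratio of 78.0 (13 to 3180). Hmmr gave 14 and 1 (35.2, 5.36 to 1490), Anln 10 and 1 (25.2, 3.58 to 1092), and Cdk1 20 and 5 UMIs (10.1, 3.67 to 34.3). Cenpa, at 11.9 and 11.8 CPM, and Aurka did not differ by 1.5-fold. Of 21 S genes 3 were higher, Uhrf1, Rrm2 and Cdc45, and 2 lower, Gins2 (0.419, 6 and 36 UMIs) and Cdca7 (0.555, 0.355 to 0.841), and the third lowest was Mcm3 at 0.782. In the HER2+ library 4 endothelial cells with at least 5 G2/M genes held 58.5% of the G2/M UMIs, and 2 of these 4 also met another gate. The other endothelial cells, which G2/M genes chose, were at 27.6 CPM (HER2+) and 25.3 CPM (HER2-), again a description only. Of the 31 Mki67 UMIs, 24 were in 1 cell. Without the cell with most member UMIs on each side, the log2 ratio of the G2/M sum was 0.68 in place of 1.29 and 10 G2/M genes were higher, and with equal weight per cell they were 0.71 and 11.

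Over all early cells the G2/M level was 1.63-fold higher in the HER2+ library (1.49 to 1.77) and the S level 0.816-fold (0.787 to 0.845), but the classes differed in share between the sorts. Of 22 G2/M genes 13 were higher and 3 lower, Cenpa (0.476), Ndc80 (0.560) and Ttk (0.591), where 22% and 36% of all genes were. Bub1 had the highest ratio at 47.6 (16.1 to 232, 276 and 3 UMIs), then Hmmr at 23.8 (4.06 to 960, 46 and 1 UMIs) and Kif23 at 7.37. Of 23 S genes 3 were higher and 5 lower, with Mcm3 lowest at 0.347, Gins2 at 0.429 and Fen1 at 0.472. Cdca7 (1.75), Ung (1.84) and Uhrf1 (1.5) were the S genes higher in HER2+ cells. Both Bub1 and Cdca7 were higher in AT2 cells than in the other lung classes, by the levels given above. AT2 cells made up 51.7% of the HER2+ and 0.717% of the HER2- library. The part of class shares in these ratios was not tested.

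In mural cells the HER2+ over HER2- ratios were 1.13 (0.751 to 1.76) for G2/M and 0.916 (0.781 to 1.08) for S. Of 4 G2/M genes Anln (24 and 1 UMIs, 3.84, 0.627 to 158) and Tpx2 (1.60, 0.498 to 8.20) were higher and Cks2 (0.601, 15 and 4 UMIs) lower, against 14.6% and 11% of all genes. Of 17 S genes Clspn (2.24, 0.341 to 94.8), Rrm1 (2.03) and Mcm5 (1.76, 0.256 to 75.8) were higher and Cdca7 and Fen1, both at 0.641, lower. In fibroblasts the ratios were 2.29 (1.79 to 2.93) for G2/M and 1.22 (1.05 to 1.41) for S. Of 9 G2/M genes 6 were higher, led by Cdk1 (26.7, 3.80 to 1161), Top2a (12.5, 3.48 to 67.7) and Birc5 (7.35), and 2 lower, Cenpa (0.467) and Cks2 (0.509), where 18.5% and 12.7% of all genes were. Of 15 S genes Mcm2, Mcm3, Mcm7, Cdc6, Rfc2 and Clspn were higher, from 1.57 to 4.01, and 2 lower, Fen1 (0.206, 0.00484 to 1.37, 1 and 13 UMIs) and Rpa2 (0.632). The same HER2+ cell as above held 78.6% of the G2/M UMIs, and without the cell with most member UMIs on each side 0 G2/M genes were higher and the log2 ratio of the sum was -0.58 in place of 1.2. That cell also carried 80 UMIs of AT2 and 14 of mammary markers beside 46 of fibroblast markers.

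A member's UMIs were also split by whether the cell held UMIs of at least 2 other G2/M genes, a rule set after the data were seen and applied to members with at least 10 UMIs in a class. Deep cells hold more genes, so the share of UMIs in such cells also moves with depth. In mammary cells this share was at least 82.9% for each of the 24 G2/M genes and 54.7 to 100% for 21 S genes. In early HER2+ AT2 cells its median was 78.3% over 20 G2/M genes and 7.34% over 23 S genes. There Cenpf had the highest share, 98.8%, followed by Ube2c at 97.9%, while Mki67 was at 84.3%. Bub1 was the lowest: its 265 UMIs lay in 225 early AT2 cells with 3.02% in such company, and its 293 late UMIs in 239 cells with 0.683%, against 97.6% in mammary cells. Acoxl lies 7010 bases from Bub1, on the opposite strand. It was at 279 and 264 CPM in early and late AT2 cells, against 6.76 CPM in mammary cells. Of AT2 cells with Bub1, 87.6% early and 89.1% late also held Acoxl, against 69.9% and 76.4% of those without. The cells with Bub1 were also deeper, with medians of 7913 against 7092.5 UMIs early and 9303 against 8805 late. The part of Acoxl in the Bub1 counts was not tested. Cenpa in early HER2+ mural cells was likewise spread, with 88 UMIs in 79 cells and 0% in such company. Of the S genes in early HER2+ AT2 cells, Slbp had 2.76%, Rfc2 2.92% and Cdca7 1.79% of UMIs in such company.

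Related genes outside the 48 were read from 3 lists. Of 42 measured mitosis genes 40 were higher and 1 lower in mammary than in late AT2 cells, with a median log2 ratio of 5.07, where 45.2% of all genes were higher and 20.4% lower. Pbk, a mitotic kinase, had the highest ratio, 367 against 2 UMIs, and Cenpm followed at 188 (76 and 4 UMIs). Cdc25b, a phosphatase that activates Cdk1, was lowest at 0.255, and Kif15 was next at 0.989. Of 30 replication genes 29 were higher, among them Chaf1a (16.5), of the complex that places histones on new DNA, and Pold1 (1.63), of a replicative polymerase. Chaf1b, at 1.37, was not called. The third list, labelled G1/S regulators, also holds Foxm1, Mybl2, Lin9 and Lin54, and the label is not a statement of each gene's role. Of its 20 measured genes 9 were higher (45%) and 3 lower (15%), shares near those of all genes. Foxm1 (10.4) and E2f3 (7.21) were highest, and Ccnd2, cyclin D2, at 0.0638 (7 and 1085 UMIs) and E2f2 at 0.341 lowest. In AT2 cells between early and late HER2+ libraries, 20 of 36 mitosis genes (55.6%) were higher early, against 15.3% of all genes. The counts of 4 of 30 replication genes (13.3%) and 0 of 20 genes of the third list were not above that share.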

How the data were processed

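Lung cells of 3 sorted groups were sequenced as 3 libraries, 1 per group, so no test between groups was run. The deposited matrices hold UMI counts per gene and barcode, made by the authors with matrix software 3.1.0 per the file headers, with reads placed on mm10 per the submitters' processing notes. For aligner settings and gene annotation the sources used here give nothing. File totals were 25610135, 49248126 and 54961019 UMIs, of which 90.0%, 90.4% and 92.9% were in the cells kept. Cells were put into classes by first match, in the order mammary, AT2, endothelial, mural and fibroblast. UMIs were summed per class and library and divided by the class total (CPM). Each interval is at the 95% level: exact Poisson (levels), exact conditional (ratios) or Clopper-Pearson (shares), and reflects counting error alone. The limit given for the absent mammary class of the early libraries is 3 over the cells kept, and not Clopper-Pearson. Genes with at least 10 UMIs over both sides were measured, and called at 1.5-fold. A side at 0 was set to a floor of 3 UMIs. For shares of cells, every cell was first thinned to 1000 UMIs. Doublets were not removed in the main values. Scrublet (scanpy 1.11.5) marked 0.187% of early HER2- cells, so few that its calls there were not relied on, 5.93% of early HER2+ and 0.981% of late HER2+ cells, and an alternative left out the highest scores of each library. Other alternatives changed the mitochondrial limit, gates, scaling, cell weights, background, thinning and call thresholds. All 48 genes are accounted for. Those described singly were the members of each role with most and fewest UMIs, the 3 highest and 3 lowest ratios of each comparison and members that went against their phase. Of the further lists, 1 gene is not reported here. Members, lists and tests were chosen with earlier results of these data known. The scripts were tested on simulated data. Gene coordinates are from GENCODE vM21 on mm10, and promoters from RefSeq on GRCm38.p6. Python 3.11.15, numpy 2.4.6, scipy 1.17.1 and pandas 2.3.3 were used.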

Additional observations from a re-analysis of the deposited data

Results flagged for a closer look

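In 3 cases classes moved in opposite directions under the same comparison with intervals on either side of 1, among 50 values examined in each of 2 comparisons. None of these differences between classes was tested. The summed S level, early HER2+ over early HER2-, was 1.22 in fibroblasts (1.05 to 1.41, 198 against 163 CPM) and 0.931 in endothelial cells (0.877 to 0.988, 217 against 233 CPM). Cks2, early over late HER2+, was 1.58 in AT2 cells (1.2 to 2.08, 4.32 against 2.73 CPM) and 0.449 in mural cells (0.222 to 0.875, 2.96 against 6.58 CPM). Cenpf, early over late HER2+, was 2.47 in AT2 cells (1.68 to 3.67, 2.83 against 1.15 CPM) and 0.336 in endothelial cells (0.160 to 0.691, 2.16 against 6.42 CPM). Without the cell with most member UMIs on each side, the log2 ratio of Cenpf in endothelial cells was 0.84, the other direction.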

How the results depend on the processing

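No paired analysis was possible because each group is 1 library, and for the same reason no replicate could be left out. Of the summed levels that answer a comparison, 113 alternatives kept the value within its interval and 31 moved it. For the other summed levels 100 kept it, 15 moved it and 5 reversed a difference of at least 1.5-fold. For the main shares of cells 43 kept the value within its interval and 17 moved it. Of values for single genes, 2176 kept direction and call, 134 lost the call and 27 reversed. Except where a value shows it, the cause was not tested. Values below are log2 ratios unless given in percent or as counts of genes. The counts of higher and lower members at other settings were not made over all genes. They have no background, and a change in them cannot be set against a change over all genes.

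Mammary over AT2, summed G2/M (5.25), was 5.09 without cells of more than 1 class, 4.91 with CPM taken without mitochondrial, milk, surfactant and gate genes, 5.53 with 5% background removed, 5.36 without the cell with most member UMIs on each side, 6.12 with gates of 5% and 20%, and 4.82 with median-ratio scaling. Summed S (1.33) was 1.21 with a mitochondrial limit of 10%, 1.23 with equal weight per cell, 0.99 without those genes, 1.13 with the stricter gates and 0.89 with median-ratio scaling. The median of all genes lay at 0.43 here, at 0.13 (all cells), 0.18 (outside the mammary class) and 0.10 (AT2) for early over late, and at -0.33 for all early cells by sort. The stricter gates reversed Mcm4 (-0.60) and Ung (-0.93).

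Early over late HER2+, all cells, summed G2/M (-1.04), was -1.28 with the mitochondrial limit, -0.91 without cells of more than 1 class, -1.16 without the highest Scrublet scores, -0.36 with equal weight and -1.17 with median-ratio scaling. Summed S (-0.0043) was 0.13 with equal weight, -0.062 without those genes and -0.14 with median-ratio scaling. Equal weight reversed Tpx2 (0.33) and Ttk (1.03), and gave 9 lower G2/M genes in place of 17. Lower S genes were 2 in place of 5 with the mitochondrial limit or a fold of 2, and 1 with equal weight. Outside the mammary class the stricter gates, which move 99 mammary-gated cells there, turned summed G2/M to -0.47, with Cdk1 -0.33, Ccnb1 -1.36, Ccnb2 -1.65, Ube2c -0.38, Birc5 -1.30, Aurka -0.12, Tpx2 -0.014, Hmmr -1.68, Cenpe -0.58, Cenpf -0.93, Ttk -0.31, Top2a -0.0012 and Mki67 -0.85. There 10 G2/M genes were higher with the mitochondrial limit or equal weight, and 8 with a fold of 2, in place of 16.

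In AT2 cells summed G2/M (0.80) was 0.36 with the mitochondrial limit, 1.0 with background removed and 0.26 with the stricter gates, and summed S (0.11) was 0.045 with the gates and 0.0060 with median-ratio scaling. The mitochondrial limit reversed Ube2c (-0.34), Hmmr (-0.0094) and Nusap1 (-0.38), and the gates Cenpa (-0.15) and Kif23 (-0.26). Endothelial summed G2/M (-0.09) was -0.38 without cells of more than 1 class, -0.35 without the highest Scrublet scores and 0.49 without the top cells, where Cenpf was 0.84. Its 5 higher G2/M genes were 3 without cells of more than 1 class, without the highest Scrublet scores or with background removed, 2 with equal weight or a fold of 2 and 0 with a minimum of 30 UMIs, and its 6 higher S genes were 3 with a fold of 2 or that minimum. In mural cells the gates gave summed G2/M -2.04 and summed S -0.23, and Tpx2 -0.15, and equal weight gave Rrm2 0.48. Fibroblast summed G2/M was -0.32 without the highest Scrublet scores and -0.28 without the top cells.

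Early HER2+ over HER2-, endothelial summed G2/M (1.29), was 0.71 with equal weight and 0.68 without the top cells, with 11 and 10 higher genes in place of 17, and 7 with a minimum of 30 UMIs. Fibroblast summed G2/M (1.2) was -0.99 without the highest Scrublet scores and -0.58 without the top cells, with 1 and 0 higher genes in place of 6, 1 with equal weight, 19 with no minimum and 0 with a minimum of 30. Its 6 higher S genes were 3 with a fold of 2 or a minimum of 30, and 11 with no minimum. Over all early cells the 5 lower S genes were 3 with a fold of 2, median-ratio scaling or CPM without those genes. Equal weight reversed Uhrf1 over all cells (-0.12), and the gates Cdca7 in mural cells (0.15).

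The mammary share of cells (15.5%) was 6.83% thinned to 500 UMIs, 71.4% unthinned and 6.21% at 5 member UMIs. The early HER2+ AT2 share (0.355%) was 0.107% with the gates, 0.178% at 500, 1.02% at 2000, 15.4% unthinned and 1.68% at 2 UMIs. The late AT2 share (0.10%) was 0.504% at 2000, 18.5% unthinned and 1.25% at 2 UMIs. The early HER2- endothelial share (0.463%) was 0.0771% at 500, 2.27% at 2000, 7.73% unthinned, 3.09% at 2 UMIs, 0.0578% at 5 UMIs and 0.289% with another random draw.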
